A study of Homo sapiens with 9 samples.

Results

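The data describe where transcripts began and ended in K562 cells that had received only the solvent dimethyl sulfoxide (DMSO) for 24 h. K562 is an established human line derived from a chronic myeloid leukaemia in blast crisis, and it carries the BCR-ABL1 fusion and expresses embryonic and fetal globin genes. The libraries were picked out by their treatment labels, as the 2 given DMSO among the 4 TIF-Seq2 libraries, and among 9 samples of all kinds in the series. Both libraries share the cell line, the solvent and the exposure time, no other agent was given to them, and they were biological replicates according to the study's methods. Values below are given for replicate 1 first and replicate 2 second.

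An RNA polymerase II transcript has a capped 5′ end, set at the transcription start site (TSS), and a 3′ end set by cleavage and polyadenylation at a poly(A) site. Most genes have several of each, so reads of the start alone or the end alone cannot say which start goes with which end. TIF-Seq2 copies capped, polyadenylated RNA into full-length cDNA and joins its ends into a circle, so that 1 read pair gives the start and the end of the same molecule. The values are counts of distinct read pairs after removal of duplicates by unique molecular identifier (UMI). Levels were not corrected for length, because each molecule that is recovered gives 1 pair whatever its length. Whether recovery depends on length was not tested.

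The libraries held 3695520 and 5135829 read pairs on 1225095 and 1637972 combinations of a start and an end position. Pairs whose ends lay 300 bp to 2 Mb apart on hg38 made up 98.6% and 98.2% of them. Of these pairs, 3605695 and 4990540 (98.98% and 98.95%) could be assigned to a Gencode v44 gene, by the rule that both ends lie on the strand of the gene and within 1 kb of its body. Gene levels are given as read pairs per 1000000 assigned read pairs (CPM). A single pair was worth 0.277 and 0.200 CPM, and a gene with no pair could have had a level of up to 0.832 and 0.601 CPM, the limit that a count of 0 allows. Intervals and limits of this kind cover counting error only.

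Most genes listed for the line were present. Of 18 erythroid and K562 identity genes, 16 reached 10 read pairs in each library, beside 8869 of 20033 protein-coding genes. Not all of them were high. EPOR and TAL1, with means of 14.8 and 23.6 CPM, lay below the markers SPI1, EPCAM and CD3D of other lists, with means of 143, 132 and 66.0 CPM. Markers of other cell types were at or near 0 with few exceptions. The 6 T cell markers summed to 73.2 and 61.3 CPM, of which CD3D alone gave 71.3 and 60.7 CPM, and 3 of the 6 had no pair. The 6 B cell markers summed to 14.7 and 22.4 CPM, and 3 of the 6 had no pair. The 7 granulocyte and monocyte markers summed to 111 and 178 CPM, nearly all from SPI1, a transcription factor gene of blood progenitors, and ELANE and CD14 had no pair. The 6 megakaryocyte and platelet markers reached 1.66 and 2.60 CPM in sum. The epithelial marker EPCAM was at 124 and 140 CPM and KRT19 at 14.4 and 26.6 CPM, while KRT5, KRT14 and CDH1 had no pair. Of 5 fibroblast markers, COL1A2 was the highest with 4.99 and 4.01 CPM. The part of other cells in any value was not tested. Genes encoded on the mitochondrial genome were not analysed here.

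The start and end sequences of a few genes show what the read pairs resolve. Each start sequence below is read from the hg38 reference on the strand of the gene, from 35 bases before the most used start to 14 bases after it. Capitals mark the run of pyrimidines that begins with the first transcribed base, where that base is C or T, and otherwise the last untranscribed base with the first transcribed base. A TATA hexamer (TATAAA or TATATA) upstream is also in capitals. The first group shows ribosomal protein, translation and small nucleolar RNA (snoRNA) host genes, whose transcripts began with C and further pyrimidines. This is the 5′ terminal oligopyrimidine (TOP) pattern, through which translation of such mRNAs is known to be controlled by growth signals.
RPL9, chr4:39458901-39458950, minus strand: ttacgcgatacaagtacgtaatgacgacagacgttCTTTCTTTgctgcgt
RPLP2, chr11:809932-809981, plus strand: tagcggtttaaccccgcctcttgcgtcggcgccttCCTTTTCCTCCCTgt
EEF1A1, chr6:73521018-73521067, minus strand: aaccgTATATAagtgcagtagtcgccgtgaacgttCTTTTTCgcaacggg
GAS5, chr1:173867975-173868024, minus strand: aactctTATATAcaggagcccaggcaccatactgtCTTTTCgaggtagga
SNHG5, chr6:85678719-85678768, minus strand: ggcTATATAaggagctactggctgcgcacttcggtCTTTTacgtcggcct

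The second group shows starts of the common kind, in which a purine follows a pyrimidine, in the genes of a small heat shock protein, embryonic zeta globin and a proteasome subunit. HBZ had a TATA hexamer in addition, and HSPB1 and PSMA4 did not.
HSPB1, chr7:76302640-76302689, plus strand: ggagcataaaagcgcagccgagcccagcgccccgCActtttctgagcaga
HBZ, chr16:152820-152869, plus strand: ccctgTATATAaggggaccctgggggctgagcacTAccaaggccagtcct
PSMA4, chr15:78540409-78540458, plus strand: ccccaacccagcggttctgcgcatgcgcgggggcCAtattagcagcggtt

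At the other end, the last 30 bases before the poly(A) tail of 4 abundant transcripts carried a polyadenylation hexamer, AATAAA or its commonest variant ATTAAA, in capitals here. This element is bound by the cleavage and polyadenylation specificity factor.
RPL22, chr1:6186619-6186648, minus strand: gtatgagttcttgAATAAAacttgggaacc
HBG2, chr11:5253191-5253220, minus strand: aatAATAAAtctattctgctaagagatcac
RPL38, chr17:74209848-74209877, plus strand: aactgtattatATTAAAatactaaaaatcc
CYCS, chr7:25122827-25122856, minus strand: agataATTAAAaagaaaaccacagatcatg

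Abundant transcripts came from genes of translation, respiration and protein folding. CYCS, which encodes cytochrome c of the respiratory chain, had the highest mean level, with 3758 and 3467 CPM. HSPB1 followed with 3673 and 3468 CPM. The difference between these genes was smaller than the difference between the libraries for each of them, so their order is not resolved. Of the 20 highest genes, 12 encode ribosomal proteins. RPL8 was at 3637 and 3150 CPM and RPL32 at 3304 and 2961 CPM. RPL9, with 2845 and 3538 CPM, and NACA were the members of the 20 that were higher in replicate 2, and the others were higher in replicate 1.

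Other genes among the 20 take part in the handling of proteins and RNA. NACA, whose product binds nascent chains at the ribosome, was at 2995 and 3169 CPM, and RACK1, a scaffold protein of the small ribosomal subunit, at 2880 and 2689 CPM. The chaperone gene HSP90AB1 was at 2882 and 2636 CPM. LSM3, of the Sm-like ring that binds U6 RNA, was at 2749 and 2594 CPM. The last of the 20 by mean were RPLP2, with 2678 and 2451 CPM, and RPS18, with 2862 and 2241 CPM. UQCRH, a subunit of respiratory complex III, was at 2813 and 2316 CPM.

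MICOS10, of the mitochondrial cristae organizing complex, was at 3105 and 2089 CPM, but nearly all its pairs also fitted another annotated gene at the same place. With pairs that fit more than 1 gene left out, its mean level was 0.379 CPM. Without replicate 1, MICOS10, RPL5, RPS18 and UQCRH left the 20 highest, and the genes that entered included OAZ1, PRAME and SNRPD1. Without replicate 2, the same 20 genes remained.

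**Figure D1:**
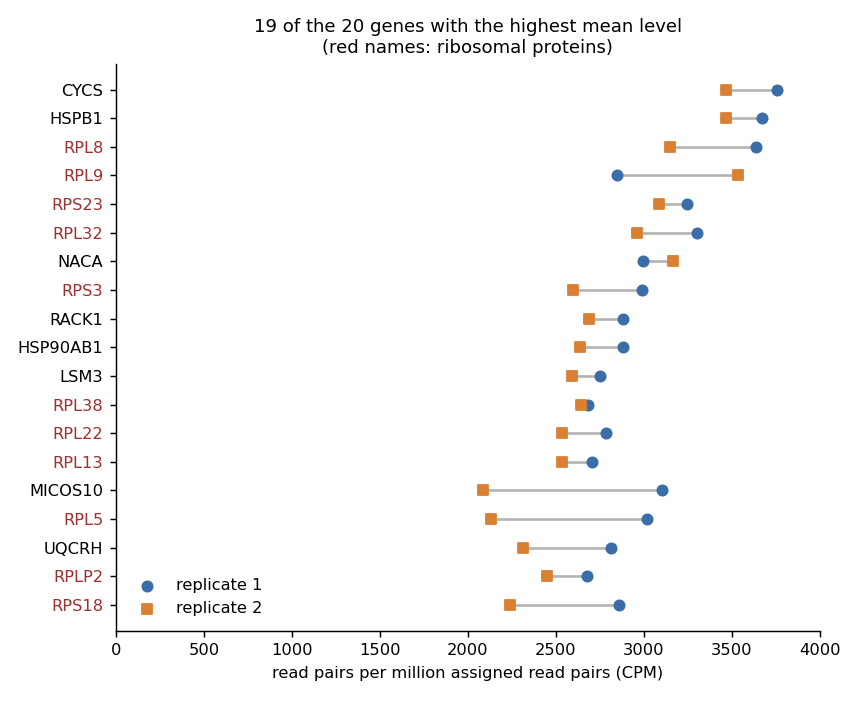
Levels of 19 of the 20 genes with the highest mean level, in CPM (x axis, from 0), one line a gene; circles are replicate 1 and squares replicate 2, and names in red are ribosomal protein genes. The pairs of points run from 3758 and 3467 for CYCS at one end to 2862 and 2241 for RPS18, and the points of MICOS10 and RPL5 lie farther apart than those of their neighbours.

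The transcriptome was spread over many genes. The 10 highest genes held 3.30% and 3.15% of assigned pairs, the 100 highest 20.5% and 18.8%, the 1000 highest 64.6% and 61.6% and the 5000 highest 94.8% and 94.1%. At least 1 pair was seen in either library for 18488 of 62663 annotated genes and in both for 14882. A gene was called detected when it had at least 10 pairs in each library, which held for 9988 genes, with a median level of 22.8 CPM. At least 1000 pairs in each library were found for 833 genes.

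Protein-coding genes held 96.5% of assigned pairs in each library and long non-coding RNA (lncRNA) genes 2.76% and 2.75%. Pseudogenes held 0.655% and 0.668%, and genes annotated as small RNAs 0.0967% and 0.0999%. Detected were 8869 of 20033 protein-coding genes, 886 of 18866 lncRNA genes, 193 of 15233 pseudogenes and 31 of 7045 small RNA genes. The median detected lncRNA gene was at 8.50 CPM and the median detected protein-coding gene at 26.3 CPM. The shares of the classes differed little between the libraries, and those of the non-coding classes moved more with the treatment of pairs that fit several genes (10.5% and 10.4% of assigned pairs).

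Hosts of snoRNAs led the lncRNAs. These genes carry snoRNAs in their introns, and their spliced exons have little or no known coding function. SNHG5 was the highest, with 815 and 903 CPM, followed by GAS5 with 757 and 673 CPM and SNHG6 with 634 and 594 CPM. SNHG8 was at 523 and 454 CPM, SNHG3 at 426 and 426 CPM, ZFAS1 at 432 and 386 CPM and SNHG29 at 441 and 336 CPM. PVT1, the neighbour of MYC, was at 463 and 382 CPM. The nuclear RNA MALAT1 was at 480 and 492 CPM, but 51.47% and 43.997% of its pairs ended before genomic sequence with 7 or more A in the next 10 bases, and without these its mean was 276 CPM. An lncRNA known only by its identifier, ENSG00000287973 (chr15:34657736-34670512, plus strand), was at 695 and 522 CPM. SNHG5, SNHG8 and SNHG3 lie within or beside a second annotated gene. Without pairs that fit more than 1 gene, SNHG8 had a mean of 0.955 CPM and SNHG5 and SNHG3 had no pair left, whereas GAS5, SNHG6 and PVT1 fitted 1 gene in every pair.

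The highest pseudogenes were processed copies of abundant mRNAs. HMGB1P5 was at 719 and 438 CPM, RPS7P1 at 429 and 500 CPM and RPL10P16 at 440 and 427 CPM. In these copies 89.0% and 92.8%, 76.5% and 74.6%, and 88.7% and 87.6% of the pairs, respectively, ended before genomic sequence rich in A, with 7 or more A in the next 10 bases. For RPL6P27 (258 and 213 CPM) and RPS2P46 (210 and 195 CPM) this share was 99.2% and 99.1%, and 99.5% and 99.5%. Without such pairs, HMGB1P5 was left with a mean of 60.1 CPM and RPL6P27 with 2.14 CPM. EIF1AXP1 (193 and 169 CPM) and ENSG00000237550 (166 and 256 CPM) had lower shares of this kind, from 61.3% to 72.5%, and RPL18AP3 (257 and 243 CPM), which lies within TXNRD1, had 31.3% and 35.3%. Pseudogenes can share reads with their parent genes, and only unique alignments were kept, so their levels and those of their parents are uncertain. Every pair of RPL10P16, RPS2P46, EIF1AXP1 and RPL18AP3 also fitted another annotated gene, so that these had no pair left when such pairs were left out.

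HBBP1, the unprocessed pseudogene of the beta globin cluster, was at 167 and 168 CPM with almost no A-rich ends, and every pair of it also fitted another annotated gene. SNORD14E, at 339 and 360 CPM, lies within HSPA8, and its pairs no longer fitted it when gene bodies were widened by 200 bp rather than 1 kb.

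An A-rich sequence after the 3′ end matters because the primer for reverse transcription can anneal to A in the RNA itself. Over all assigned pairs, 7.99% and 8.07% ended before such sequence. In 172 of the 200 highest genes the share was under 10% in both libraries, with medians of 0.360% and 0.425%. In 6 of the 200 it was at least 50% in both.

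The first of the 6 was EIF5B, a translation initiation factor gene, at 2636 and 2403 CPM, with 87.9% and 90.5% of its pairs before A-rich sequence. It ranked 21 with all pairs and 779 without these. HSP90AA1, the inducible form of HSP90, was at 2380 and 2337 CPM with 65.1% and 61.7% of such pairs, and moved from rank 29 to 165. LUC7L3, a splicing factor gene, moved from rank 34 to 313, HMGB1 from 39 to 255 and HMGN5 from 73 to 349. RPL27 moved from rank 121 to 2053, with 91.8% and 91.6% of its pairs before A-rich sequence. Whether these ends were poly(A) sites or priming within the transcript was not tested. Such pairs count in gene levels here and are left out of the isoforms below.

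Levels by gene group were compared with those of all detected genes, whose median was 22.8 CPM. All 79 listed ribosomal protein genes were detected. They held 11.97% and 11.22% of assigned pairs, with a median of 1359 CPM. Of the other listed mRNAs of the TOP class, 18 of 18 were detected with a median of 515 CPM, among them NACA, EEF1A1 with 1771 and 2018 CPM, the nucleolar chaperone gene NPM1 with 1870 and 1756 CPM, and EIF3K with 1732 and 1520 CPM. Together they held 1.72% and 1.71% of pairs.

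Nuclear genes of the respiratory chain were detected in 47 of 47 cases and held 2.78% and 2.73% of pairs, with a median of 407 CPM. After CYCS and UQCRH, UQCRB of complex III was at 1908 and 2021 CPM and COX7C of complex IV at 1140 and 1319 CPM. The 20 proteasome subunit genes, all detected, had a median of 550 CPM and were led by PSMA4 with 1459 and 1736 CPM and PSMA2 with 1529 and 1287 CPM. The 23 chaperone genes, all detected, had a median of 429 CPM. HSPE1, the mitochondrial co-chaperone, was at 2651 and 2303 CPM, and CCT5, of the cytosolic chaperonin ring, at 1565 and 1534 CPM. Histone variant and HMG protein genes, with 13 of 15 detected, had a median of 494 CPM and included H3-3A with 1860 and 1575 CPM and HMGB1 with 2437 and 1746 CPM.

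All 18 cytoskeleton genes were detected, with a median of 449 CPM. STMN1, whose product destabilizes microtubules, was at 1399 and 1194 CPM, MYL12B at 1212 and 1169 CPM and ACTG1 at 1259 and 1080 CPM. The 16 glycolysis genes, all detected, had a median of 282 CPM, with GAPDH at 1598 and 1544 CPM, ENO1 at 783 and 1030 CPM and LDHB at 780 and 803 CPM. ALDOA was at 319 and 781 CPM, a difference of over 2-fold between the libraries, whereas PKM, at 578 and 612 CPM, differed little.

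Of the erythroid and K562 identity list, fetal gamma globin HBG2 was the highest member, with 2492 and 2164 CPM. Embryonic epsilon globin HBE1 was at 1239 and 1095 CPM and embryonic zeta globin HBZ at 1194 and 1003 CPM. The near-identical gamma globin copy HBG1 was at 8.32 and 9.22 CPM, and of the alpha globin copies HBA2 was at 89.0 and 61.1 CPM and HBA1 at 1.66 and 1.20 CPM. Since only unique alignments were kept, the division between such copies is uncertain. Most pairs of HBG2 and all pairs of HBE1 also fitted another annotated gene, and without pairs that fit more than 1 gene the list fell from a mean of 0.647% to 0.313% of pairs.

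Erythroid regulators were lower. NFE2 was at 351 and 433 CPM, GATA1 at 188 and 273 CPM, KLF1 at 85.1 and 85.8 CPM, LMO2 at 35.8 and 34.7 CPM and TAL1 at 14.1 and 33.1 CPM. The membrane protein gene GYPC was at 431 and 480 CPM, and GYPB at 1.11 and 3.21 CPM. The transferrin receptor gene TFRC was at 130 and 125 CPM. The 15 iron and heme genes were all detected, with a median of 80.9 CPM, led by the ferritin heavy chain gene FTH1 with 1137 and 1331 CPM, then UROD, for an enzyme of heme synthesis, with 359 and 370 CPM. The erythroid form of the first enzyme of that pathway, ALAS2, was at 26.1 and 31.9 CPM.

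The 14 snoRNA host lncRNAs, all detected, held 0.543% and 0.511% of pairs with a median of 367 CPM. Without pairs that fit more than 1 gene, their mean share fell from 0.527% to 0.322%. Of 14 well-known lncRNAs with an annotation, 11 were detected, with a median of 33.7 CPM, and H19 and MEG3 had no pair.

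Pairs spanned wide stretches of the genome. The median distance from start to end was 8841 and 8926 bp, with introns included, and 10% of the pairs spanned less than 1728 and 1713 bp and 10% more than 41019 and 42743 bp.

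Start-end isoforms were formed by joining start positions within 10 bp of each other into start clusters and end positions likewise into end clusters, on pairs without A-rich sequence downstream. An isoform is a combination of a start cluster and an end cluster. Its share is its percentage of the gene's pairs of this kind, so pairs with A-rich ends are not in the total. For 5611 genes with at least 50 such pairs in each library there were 72432 start clusters, 33738 end clusters and 127025 combinations, of which 22309 had at least 5 pairs in each library. The clusters held 92.3% and 92.0% of the pairs.

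In the median gene, the dominant isoform held 55.2% of the pairs. It held over 50% in 3118 genes (55.6%) and over 90% in 553 genes (9.86%). A single start cluster held at least 10% of pairs in 71.6% of genes, a single end cluster did in 57.5%, and 707 genes had several of both. Starts were wider than ends. The positions from the 10th to the 90th percentile of pairs within the dominant start cluster spanned a median of 30 bp, and the most used position took 25.7% of them. For dominant ends the corresponding values were 5 bp and 66.5%.

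Gene groups differed in how far a single isoform prevailed. The median share was 93.5% for 45 respiratory chain genes, 92.1% for 79 ribosomal protein genes and 90.3% for 20 proteasome genes, beside 55.2% over all genes. It was 79.1% for 14 snoRNA hosts, 78.6% for 17 cytoskeleton genes, 73.9% for 17 TOP mRNAs and 70.5% for 15 erythroid genes. It was 56.5% for 22 chaperone genes and 49.9% for 12 iron and heme genes. Protein-coding genes had a median of 55.5% (5317 genes) and lncRNA genes of 47.1% (254 genes).

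The share was lower in genes of lower level. From the 20% of genes with the highest levels down to the 20% with the lowest, the median share in steps of 20% was 78.8%, 65.3%, 54.1%, 43.2% and 35.8%. Chains of neighbouring positions grow with the number of pairs, and with fixed windows of 25 bp to each side of the most used position, a setting chosen after seeing the data, the same medians were 57.9%, 49.8%, 45.3%, 40.4% and 36.3%. The gene groups above differed in level too, and the part of level in their shares was not tested.

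**Figure D2:**
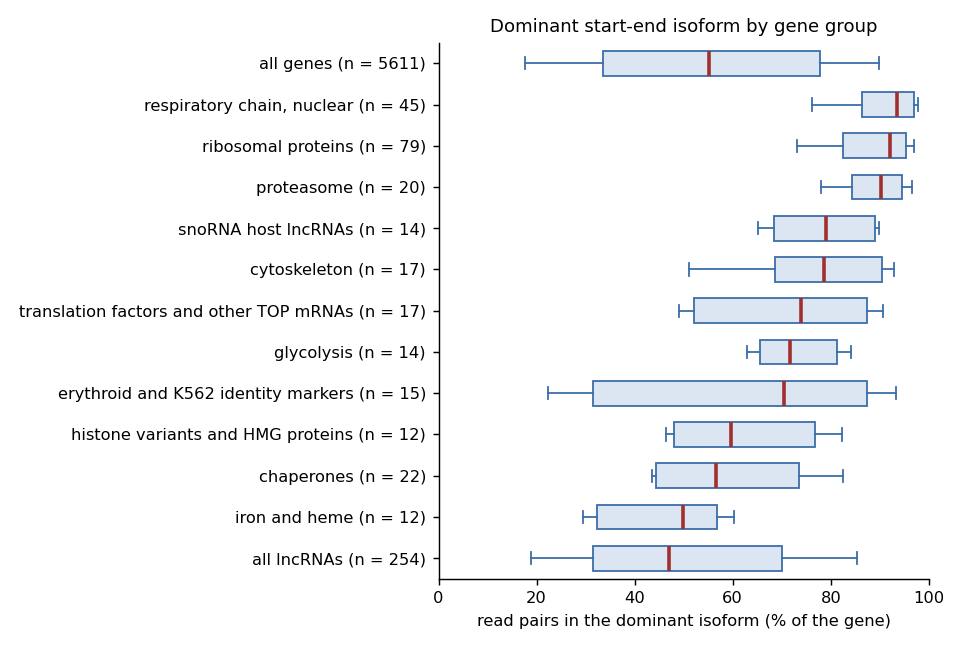
Percentage of a gene's read pairs in its dominant start-end isoform (x axis, 0 to 100%) by gene group, with pairs before A-rich sequence left out. Box plots have the number of genes in each group beside its name. Boxes span the quartiles, the red line is the median and whiskers reach the 10th and 90th percentiles. Respiratory chain, ribosomal protein and proteasome genes lie at the top of the scale with medians of 93.5%, 92.1% and 90.3%, and all genes spread around 55.2%.

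The highest genes illustrate the range. CYCS, the gene with the highest mean level, had 1 start and 3 ends. Its dominant isoform (chr7, minus strand, from 25125260 to 25122827) held 34.9% and 34.7% of its pairs, and isoforms from the same start to the upstream ends at 25123098 and 25123603 held 22.0% and 21.1%, and 13.7% and 14.2%. HSP90AB1 was the opposite case, with 3 starts at 44247101, 44250485 and 44252200 on chromosome 6 and 1 main end, and isoform shares of 45.4% and 49.6%, 13.8% and 12.1%, and 12.4% and 11.3%. RPL22 ended at 6186619 (54.3% and 52.8%) or 400 bp farther on, at 6186219 (28.3% and 25.5%).

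In the other genes of the 20, the dominant isoform held between 76.8% and 98.9% of pairs in either library. MICOS10 was at 98.9% and 98.4%, UQCRH at 97.0% and 97.0%, RPLP2 at 97.0% and 96.8%, LSM3 at 96.5% and 96.2%, and RPS23, at the low end, at 79.1% and 76.8%. The dominant ends of all 20 lay in exon parts annotated as untranslated. For LSM3, the end lay 2779 bp from the nearest annotated transcript end of the gene.

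Among the 200 highest genes, the largest shares were those of RPL36AL, with 99.1% and 98.8%, MICOS10, the histidine triad gene HINT1 with 98.5% and 98.5%, FAU, which encodes a ribosomal protein fused to a ubiquitin-like domain, with 98.8% and 98.0%, and LAMTOR5, of the lysosomal Ragulator complex, with 98.3% and 98.1%. The lowest were those of EIF5B with 21.0% and 14.8%, HMGN5 with 18.3% and 20.8%, HSP90AA1 with 23.4% and 19.3%, LUC7L3 with 26.4% and 27.5% and UBE2L3, a ubiquitin-conjugating enzyme gene, with 25.2% and 31.2%. For EIF5B and UBE2L3 the libraries did not have the same dominant isoform. The first 4 are also among the 6 genes with mostly A-rich ends, so their shares describe only the smaller part of their pairs. For EIF5B, 1148 and 1143 of 9505 and 11990 pairs were left.

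Of the 200 highest genes, 16 had no hexamer before the dominant end, and in 3 of these, EIF5B, LUC7L3 and MRPS23, that end also lay over 200 bp from an annotated one. The end of EIF5B lay in a coding exon, 14272 bp from the annotated end and before 10 bases with 6 A, just under the limit of 7. That of LUC7L3 lay in a coding exon too, 1031 bp away and before 5 A. The end of HMGN5, from the genes of lowest share, also lay in a coding exon. That of MRPS23, a mitochondrial ribosomal protein gene, lay in an untranslated exon part, 1313 bp away and before 3 A. The last 20 transcribed bases at these ends are shown with the next 10 bases of the genome in capitals.
EIF5B, chr2:99376399-99376428, plus strand: ggaggaggaagaagaggaagAAGAAGATGA
LUC7L3, chr17:50745825-50745854, plus strand: gaaagagaaaggaaaagacgAAGGGAAGAG
HMGN5, chrX:81114860-81114889, minus strand: agaaacaggagatggaaaagAGAATGAAGA
MRPS23, chr17:57839477-57839506, minus strand: ataaagattgttcaaatgggACTCAATCTG
The first 3 are purine-rich on both sides of the end, and the sequence around the end of MRPS23 is not.

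Globin and other erythroid genes had mostly plain structures. HBG2 had 96.1% and 95.4% of pairs in its dominant isoform, HBE1 83.2% and 81.6% and HBZ 84.3% and 82.5%. GATA1 was at 93.4% and 94.3% and GYPC at 90.5% and 92.2%. NFE2 was lower, at 49.5% and 42.6%. Among lncRNAs, GAS5 was at 78.5% and 77.2% and SNHG5 at 72.0% and 77.5%, whereas ENSG00000287973 was at 39.4% and 40.6%. The dominant isoform of MALAT1 held 52.6% and 51.5% of the pairs left without A-rich ends, or 442 and 708 pairs beside 1731 and 2457 pairs of the gene in all. It ended at 65499661 on chromosome 11, where no hexamer preceded the end and 6 of the next 10 bases were A.

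The longest dominant isoforms joined ends that lay far apart in the genome. The longest was that of CDKAL1, which encodes a tRNA-modifying enzyme. It spanned 697944 bp on chromosome 6 with 118 and 149 pairs, or 56.7% and 51.4% of the gene. GMDS, for an enzyme of GDP-fucose synthesis, spanned 621798 bp with 74 and 127 pairs, and the adenosine kinase gene ADK 531775 bp with 530 and 642 pairs. CUX1, a homeobox gene, had 319 and 526 pairs over 467949 bp, 77.2% and 76.9% of its total, and SND1 359 and 557 pairs over 440398 bp. FARS2, SLC25A21, SPIDR, RSRC1 and TBC1D22A made up the rest of the 10 longest, from 510070 down to 411448 bp.

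Sequence at the dominant start differed between gene groups. Over 5611 genes, the first base was A in 64.4%, G in 21.4%, C in 12.2% and T in 2.01%, and a pyrimidine followed by a purine across the start was found in 75.7% (4249 genes). Over all start positions, each weighted by its read pairs, rather than the most used position of the dominant start of each gene, the pyrimidine-purine share was 46.5% and 46.2%.

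The TOP pattern, a C followed by at least 4 pyrimidines, was found at 340 starts (6.06%) over all genes. It was found in 69 of 79 ribosomal protein genes (87.3%), 15 of 17 other TOP mRNAs (88.2%) and 11 of 14 snoRNA hosts (78.6%). In the ribosomal protein genes only 2.53% of starts were of the pyrimidine-purine kind. In contrast, the pattern was found in 3 of 45 respiratory chain genes, in 1 of 20 proteasome genes and in none of the 14 glycolysis and 17 cytoskeleton genes. The list of other TOP mRNAs was drawn up from genes known for this pattern, so its share is a check of the start positions. The sequences of RPL9, RPLP2 and EEF1A1 above are of this kind.

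A TATA hexamer, TATAAA or TATATA on the strand of the gene lying wholly within the stretch 35 to 20 bases before the start, was found at 154 starts (2.74%). The share was 35.7% for snoRNA hosts (5 of 14), 35.3% for cytoskeleton genes (6 of 17), 29.4% for TOP mRNAs (5 of 17), 27.3% for chaperones (6 of 22) and 12.7% for ribosomal protein genes (10 of 79). None was found in the respiratory chain and proteasome genes. Starts with the hexamer were narrow, with a median width of 5 bp and 47.5% of pairs at the most used position, compared with 30 bp and 25.3% at the other starts. The letters were searched for in this window only, and a match is not evidence of binding.

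At the dominant end, AATAAA was found within the last 40 bases in 66.5% of genes and ATTAAA without it in 17.3%, so that 4699 genes (83.7%) had either. In the stretch from 10 to 50 bases downstream of the end, searched in the same way, either was found in 3.72%. The first base of the hexamer lay a median of 21 bases before the end, with 10% to 90% of genes between 18 and 27 bases. The share with either hexamer was 97.5% in ribosomal protein genes (77 of 79), 97.8% in respiratory chain genes, 95% in proteasome genes, 100% in the 14 snoRNA hosts and 66.7% in 12 histone variant and HMG genes.

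**Figure D3:**
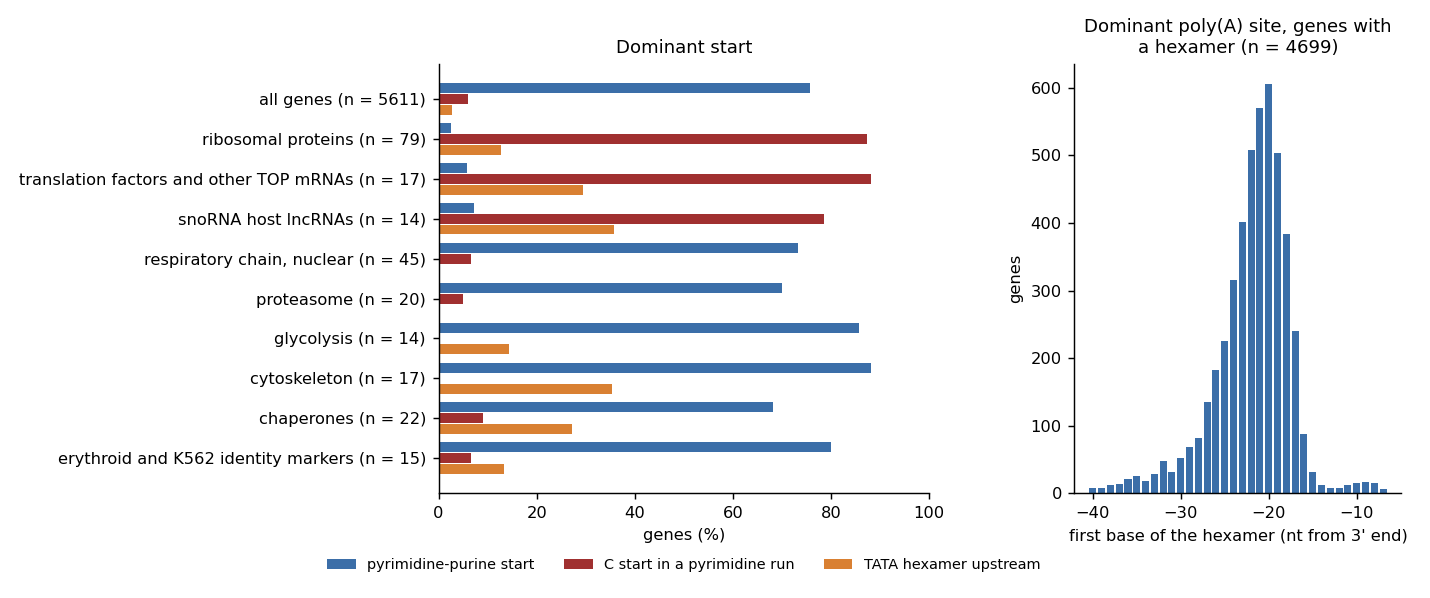
Left, percentage of genes in each group whose dominant start was of the pyrimidine-purine kind, began with C in a pyrimidine run, or had a TATA hexamer upstream (x axis from 0 to 100%, number of genes beside each group). Right, number of genes by the distance in bases from the first base of the polyadenylation hexamer to the dominant 3′ end, which is most often 20 and has a median of 21. The C starts in a run reach 87.3%, 88.2% and 78.6% in ribosomal protein genes, TOP mRNAs and snoRNA hosts, compared with 6.06% over all genes.

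Dominant ends were mostly at annotated places. The start was within 200 bp of the nearest annotated start of the gene in 96.1% of genes, and the end within 200 bp of the nearest annotated end in 85.4%. Both held in 82.6%, and the median distances were 1 and 2 bp. Start and end were compared separately, so the nearest ones can belong to different annotated transcripts. In the 817 genes whose dominant end was farther away, the median share was 38.5% rather than 58.7%, a hexamer was found in 75.2% rather than 85.2%, and both libraries had the same dominant isoform in 83.1% rather than 91.7%. With 0 A in the next 10 bases, 90.6% of dominant ends were within 200 bp of an annotated end and 84.1% had a hexamer. With 6 A, these shares were 78.9% and 80.2%.

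The libraries gave similar levels. Over the 9988 detected genes, Pearson's r of log2(CPM + 1) was 0.979 and Spearman's rho 0.973. Both are a description across genes, which are not independent replicates. A level past 2-fold between the libraries was found for 457 genes, which is 4.58% of those compared. It was higher in replicate 2 for 380 (3.8%) and higher in replicate 1 for 77 (0.771%). With TMM or DESeq2 scaling the total was 382 each, split 269 and 113 or 262 and 120, so the imbalance rested in part on the scaling. The median log2 ratio of replicate 2 to replicate 1 was 0.09 with an SD over genes of 0.46.

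The spread exceeded counting error at high levels. In the 20% of genes with the highest levels the SD of the log2 ratio was 0.34, and counting error alone would give 0.07. In the 20% with the lowest levels the values were 0.54 and 0.49. The biological coefficient of variation estimated by edgeR from these libraries was 17.9%. With 2 libraries of 1 group there is no test of a difference, and the 2-fold counts describe these libraries.

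**Figure D4:**
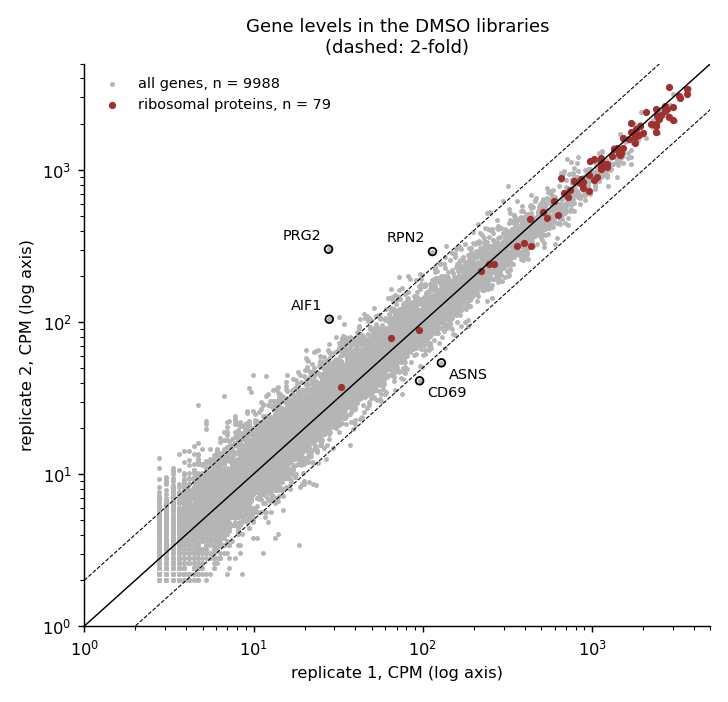
Gene levels in replicate 1 (x axis) and replicate 2 (y axis), in CPM on log axes, for the 9988 detected genes (grey) with the 79 ribosomal protein genes in red; dashed lines mark 2-fold. The points follow the diagonal (Pearson's r of log2(CPM + 1) = 0.979), with 380 genes above the upper line and 77 below the lower one. PRG2, one of 5 genes circled and named, stands farthest above the diagonal.

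Among 3312 genes with a mean of at least 50 CPM, 63 were past 2-fold, 60 of them higher in replicate 2. PRG2, the eosinophil major basic protein gene, stood apart, with 27.7 and 301 CPM, a ratio of 10.9. Its isoform was the same in both libraries and held 96 of 100 and 1446 of 1504 pairs. It was followed by AIF1, a calcium-binding protein gene of myeloid cells, with 28.0 and 104 CPM, the death receptor gene TNFRSF10A with 31.9 and 109 CPM, ANKZF1 with 34.1 and 96.8 CPM, and RAB1B, of vesicle traffic, with 72.7 and 198 CPM. In the other direction the ratios were smaller. ASNS, asparagine synthetase, was at 129 and 53.9 CPM, the lymphocyte activation gene CD69 at 95.7 and 41.1 CPM, ERICH1 at 75.4 and 33.5 CPM, LYPLAL1 at 186 and 93.6 CPM and the cysteinyl-tRNA synthetase gene CARS1 at 135 and 67.9 CPM.

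The ratio moved with annotated transcript length. Length here is the spliced length of the annotated transcript of the gene whose ends lay nearest those of the dominant isoform. It was not measured on the molecules and can be wrong where the dominant end is not annotated. The 5611 genes were taken in steps of 20%, from the shortest such transcripts to the longest. The median log2 ratio of replicate 2 to replicate 1 was then -0.05, -0.00, 0.07, 0.12 and 0.12. Spearman's rho of length and ratio was 0.171. Genes with longer annotated transcripts were also lower in level, with a rho of -0.229. The part of length in the 2-fold genes was not tested.

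The dominant isoform was the same in both libraries in 5074 of 5611 genes (90.4%), the dominant start in 95.1% and the dominant end in 94.4%. In the 537 genes where it differed, the median share was 17.4%, compared with 59.4% in the others. Shares in the libraries had a Pearson's r of 0.974 across genes and differed by a median of 3.30 percentage points, with 95% of genes under 13.1 points. At the level of single positions, the overlap was small. Only 469171 of 2393896 combinations of a start and an end position (19.6%) were seen in both libraries, although these held 77.1% and 72.5% of the pairs, since 71.8% and 70.9% of combinations in a library rested on 1 pair.

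Read pairs also show whether the start used by a molecule went with its end. This was examined in 1112 genes with at least 2 starts and 2 ends. Only the 2 most used starts and the 2 most used ends of a gene were taken, and pairs to other ends were left out. Each start had at least 20 pairs to these ends in each library. The use of the main end was compared between the main and the second start. The median absolute difference was 2.19 and 1.97 percentage points, and it was under 5 points in both libraries in 664 genes (59.7%). It was at least 20 points with the same sign in both in 12 genes (1.08%), and 28 and 22 genes passed 20 points in each library on its own. No gene passed 20 points with opposite signs. Wilson 95% intervals of the shares were apart in both libraries in 37 genes.

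The largest difference was that of GMPR, for guanosine monophosphate reductase, in which each start used only 1 of the 2 ends compared. Of the pairs to these ends, all 22 and 49 from the annotated start at 16238587 on chromosome 6 ended at 16295543. None of 27 and 97 pairs from a start 27209 bp downstream, in an intron at 16265796, did so, which allows a share of up to 12.5% and 3.81% by the Wilson interval. The other end, at 16268226, also lay in an intron, 26895 bp from an annotated end, and had a hexamer.

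In GCSH, for a protein of the glycine cleavage system, starts only 96 bp apart differed by 71.5 and 76.1 points. From the start at 81096282 on chromosome 16, all 172 and 193 pairs to the 2 ends compared reached the main end at 81082117. From the start at 81096378, 43 of 151 (28.5%) and 48 of 201 (23.9%) did, and the ends were 712 bp apart, both in exon parts annotated as untranslated. MCFD2, of the cargo receptor for coagulation factors, had 70.3% and 77.3% use of its main end from the main start and 1.52% and 17.4% from the second, 25945 bp upstream. In SNX5, a sorting nexin gene, the main end lay 25481 bp before the second end, and was used by 83.3% and 87.8% of the pairs from the main start, compared with 14 of 40 and 8 of 38 pairs from the second.

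CFLAR, an inhibitor of caspase 8 activation, had differences of -50.7 and -40.5 points between starts 101 bp apart, with 30 and 44 pairs from the main start and 25 and 43 from the second. BCCIP, a partner of BRCA2 and CDKN1A, had differences of -34.34 and -35.02 points, as all 24 and 23 counted pairs from its second start used the main end. That start, at 125842446, lay 16952 bp from an annotated one and close before the main end at 125842800. In CFLAR, both starts (201118794 and 201118693) lay close before the main end at 201119177. These distances are near the lower limit of 300 bp, and the part of that limit was not tested. The lncRNAs LINC01128, PXN-AS1 and CCDC144NL-AS1 had differences of -37.1 and -41.1, 23.6 and 23.9, and 22.2 and 35.9 points. RPL22 was the case with the most pairs. Among pairs to its 2 most used ends, the main end was used by 5382 of 8191 and 6600 of 9782 pairs from its main start (65.7% and 67.5%). From a start 9204 bp upstream, the main end was used by 297 of 325 and 486 of 530 pairs (91.4% and 91.7%), a difference of -25.7 and -24.2 points.

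**Figure D5:**
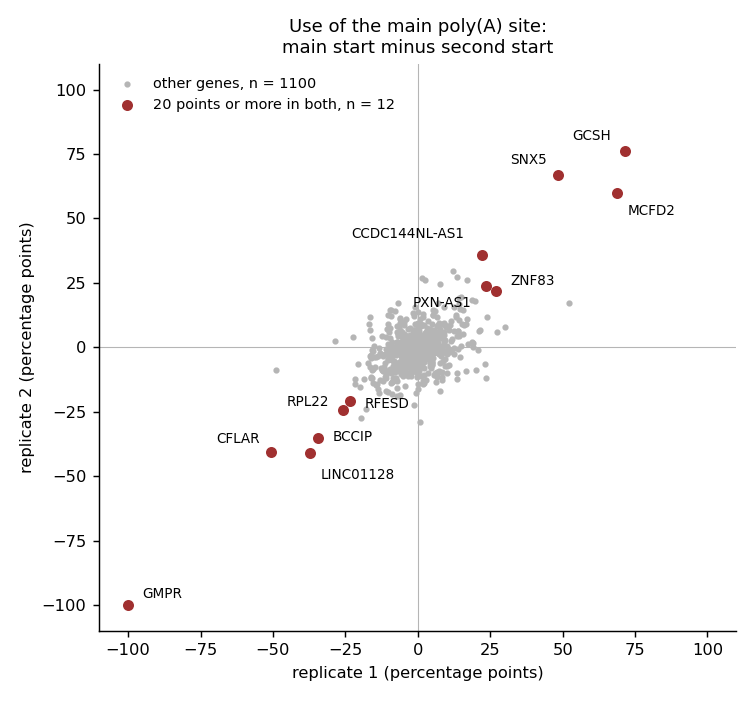
Use of the main poly(A) site from the main start minus that from the second start, in percentage points, in replicate 1 (x axis) and replicate 2 (y axis), one point a gene for 1112 genes. Use is the share among pairs to the 2 most used poly(A) sites of the gene. The 12 genes with 20 points or more of the same sign in both libraries are in red. Most genes lie near 0 in both libraries, and GMPR, at -100 and -100, and GCSH, at 71.5 and 76.1, are farthest from it.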

How the data were processed

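K562 cells given DMSO for 24 h were profiled by TIF-Seq2 in 2 biological replicates. The authors deposited raw counts of read pairs for each combination of a 5′ and a 3′ end position. They trimmed reads with cutadapt 1.16, aligned both ends to hg38 with STAR 2.5.3a, kept unique alignments and removed duplicates by UMI. No filter on distance or A content had been applied to the counts. UMIs of 8 bases allow 16384 sequences in the design used, and the largest count of a combination was 588 and 799.

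Pairs 300 bp to 2 Mb apart were assigned to Gencode v44 genes with both ends within 1 kb of the body, and where several fitted, to the one with the closest ends; ties (0.0722% and 0.0620%) were left out. Levels are CPM of assigned pairs. For isoforms, pairs with 7 or more A in the 10 bases downstream were left out, positions with 2 or more pairs in all were joined across gaps of up to 10 bp, and genes with at least 50 pairs in each library were kept. Analyses used Python 3.11.15 with pandas 2.3.3 and numba 0.67.0, and edgeR 4.0.16 and DESeq2 1.42.0 for scaling and dispersion. Assignment and clustering were tested on simulated data.

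The rule for naming took the 20 highest genes, the 10 highest lncRNAs and 10 highest other non-coding genes, leading members of each list, the lowest and largest dominant shares among the 200 highest genes, the 10 longest isoforms, the 5 largest ratios each way at 50 CPM or more and the 10 largest linkage differences. HMGN5, PRG2's isoform and MALAT1's end were described after their values were seen. Members and lists were chosen with earlier results of these data known. Some genes that the rule takes are not reported here.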

Additional observations from a re-analysis of the deposited data

Results flagged for a closer look

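Some read pairs in the distance window fitted no gene on their own strand at both ends, and the comparisons above do not use them. Pairs with both ends inside annotated genes but on the opposite strand numbered 6600 in replicate 1 and 8754 in replicate 2, or 0.181% and 0.174% of the pairs in the window. Pairs that started in 1 gene and ended in a different gene of the same strand numbered 6203 and 9884, or 0.170% and 0.196%. No sample gives a background for these counts, so they are values only. What such molecules are was not tested.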

How the results depend on the processing

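Of 84 alternative values of 16 main results, 34 stayed within the spread of the libraries or within 1.5 times the count and 50 moved. For shares of assigned pairs and the median distance, the main value is the mean of the libraries. Leaving out a library could therefore not count as a move for these, and such values among the 34 carry no information. Without A-rich pairs, without pairs fitting several genes, at up to 200 kb and with bodies widened by 200 bp, the protein-coding share of 96.5% became 97.1%, 97.1%, 96.5% and 96.7%, the lncRNA share of 2.76% became 2.57%, 2.42%, 2.72% and 2.69%, and the pseudogene share of 0.662% became 0.227%, 0.504%, 0.665% and 0.575%. The ribosomal protein share of 11.6% became 12.3% without A-rich pairs. Counting genes with 1 pair in either library, or with 50 in each, gave a Pearson's r of 0.985 and 0.974 and 4470 and 138 genes past 2-fold. With joining at 20 bp, positions of 5 pairs, windows of 25 bp, A-rich pairs kept, and genes of 20 or of 200 pairs, the median dominant share of 55.2% became 61.4%, 45.6%, 46.3%, 51.6%, 45.0% and 70.2%, and the share of genes with the same isoform of 90.4% became 92.4%, 89.8%, 89.4%, 89.4%, 84.6% and 95.8%. The pyrimidine-purine share became 75.1% with A-rich pairs kept and 46.4% over all start positions weighted by pairs. The hexamer share became 80.8% with A-rich pairs kept, 84.4% in 50 bases, 79.3% at 10 to 30 bases and 86.5% over all end positions weighted by pairs. Annotated starts became 95.01% and 93.1% at 100 and 50 bp, and annotated ends 83.6% with A-rich pairs kept, 81.8% at 100 bp and 78.7% at 50 bp. Genes with linked ends became 4 of 480 with 50 pairs from each start and 8 of 623 with starts at least 100 bp apart. The causes were not tested, except that fewer genes enter the last settings.

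From 1 library alone, the results ranged over 96.5% to 96.5% for protein-coding genes, 2.75% to 2.76% for lncRNAs, 0.655% to 0.668% for pseudogenes, 18.8% to 20.5% for the 100 highest genes, 11.22% to 11.97% for ribosomal proteins, 10123 to 11026 genes detected, 46.7% to 47.5% for the dominant share, 74.2% to 74.2% for pyrimidine-purine starts, 83.5% to 83.5% for hexamers, 94.9% to 95.3% and 84.4% to 85.2% for annotated starts and ends, 8841 to 8926 bp for the median distance and 22 to 28 linked genes. Results that compare the libraries have no such value. No paired analysis was possible because the data hold 1 group. The depth limits lowly expressed genes, at a level of 10 pairs or less.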
